A study of Rattus norvegicus with 12 samples.

Results

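The genes described are those of the aryl hydrocarbon (Ah) receptor pathway. They are the receptor *Ahr*, its binding partner *Arnt*, its repressor *Ahrr*, and the target genes *Cyp1a1*, *Cyp1b1*, *Tiparp* and *Aldh3a1*. Their probes were found by the RefSeq accession of each probe, by which 16581 genes could be named on the array. A probe was found for 6 of the 7, with 9 probes in all. No probe was matched to *Tiparp*, which is not analysed here.

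The Ah receptor is a transcription factor that waits in the cytoplasm in a complex with the chaperone Hsp90. When a ligand such as a dioxin, a polycyclic aromatic hydrocarbon or a tryptophan derivative binds, the receptor enters the nucleus, pairs with Arnt and binds DNA at its response elements, which share a short core. Among the genes it switches on are the xenobiotic-metabolizing cytochromes P450 of family 1 and its own repressor, and resveratrol is known as an antagonist of the receptor.

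Rat L6 cells, a skeletal muscle line, were grown into myotubes, and their RNA was hybridized to 12 Agilent 1-colour arrays. With 3 arrays each, the groups were DMSO as the control, and 60 µM GR24, pinosylvin or resveratrol in DMSO, each for 24 h. The sample labels give 6 days of differentiation, the study's methods a day that is later. The replicates were independent experiments on a single batch of cells, and the number of arrays limits the precision. GR24 is a synthetic strigolactone, a kind of plant hormone. Pinosylvin and resveratrol are plant stilbenes, and resveratrol carries an additional hydroxyl group on the ring that is bare in pinosylvin.

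Each level is a log2 of the signal left after background subtraction, set relative to the 75th percentile of its array, so that a level below 0 lies under that percentile. Differences are differences of these log2 levels. They were tested with limma, in a fit of all 12 arrays, for the 24279 probes whose signal stood well over background throughout the 3 arrays of some group. The threshold was an adjusted p of 0.05. Of the 9 probes of the pathway, 6 probes of 5 genes were tested. *Ahr* came in through the treated groups, since its probe passed the scanner software's mark for signal well above background on 1 control array and throughout the other groups. The tested *Cyp1b1* probe came in through the control and resveratrol groups. All 3 compounds were compared with the same control arrays, so these comparisons are not independent of each other, and with the 3 pairs of compounds there were 6 comparisons.

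The cells were checked against markers of myotubes. Of 13 markers listed, 12 had a probe, and 11 of these were well above background on all 12 arrays. *Myh3*, the embryonic myosin heavy chain, had the highest signal of these on every array. The summed signal of the markers was 775700, 626800 and 771900 on the control arrays, 272800, 252700 and 294400 with GR24, 694000, 642600 and 727500 with pinosylvin, and 581500, 520700 and 624700 with resveratrol. The GR24 arrays were lower than every other array, and the resveratrol arrays were lower than the control arrays. Against the control, 9 of the 12 markers fell with GR24, with a median difference of -2.14 (0.03 over all tested probes). With resveratrol 7 fell and none rose (median -0.33, against 0.01 over all tested probes), and with pinosylvin 2 rose and 1 fell (median 0.15, against 0.05). Of all tested probes, 25.5% fell and 31.5% rose with GR24. With resveratrol 8.99% fell and 7.99% rose, and with pinosylvin 8.27% fell and 8.28% rose. *Myod1*, a master regulator of the muscle lineage, was not above background on any GR24 array. In RNA of whole cultures, fewer cells of a type and less RNA per cell cannot be told apart. With GR24 and resveratrol the markers moved along with the differences of pathway genes given below, and their part in the result was not tested.

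Against the control, GR24 moved 4 of the 6 tested probes past the threshold, 3 higher and 1 lower, where 57.1% of all tested probes passed in either direction, 31.5% higher and 25.5% lower. For 4 of the 6 the GR24 arrays did not overlap the control arrays, which held for 61.1% of all tested probes. With pinosylvin 2 of the 6 passed, 1 higher and 1 lower (16.6% of all tested probes, 8.28% higher and 8.27% lower), and 4 did not overlap (32.7%). With resveratrol 1 of the 6 passed, and it was higher (17% of all tested probes, 7.99% higher and 8.99% lower), and 1 did not overlap (33.1%). Between pinosylvin and resveratrol 1 of the 6 differed, lower with pinosylvin (14.5% of all tested probes, 7.68% higher and 6.85% lower), and 3 did not overlap (33.5%). GR24 and pinosylvin differed at 5 of the 6, 4 higher with GR24 and 1 lower (56.4% of all tested probes, 29.6% higher and 26.8% lower), and 5 did not overlap (62.5%). GR24 and resveratrol differed at 3 of the 6, 2 higher with GR24 and 1 lower (51.4% of all tested probes, 27.4% higher and 23.9% lower), and 5 did not overlap (58.6%). At these shares the counts are not a result about the pathway, and the genes are described 1 by 1.

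*Ahr* encodes the receptor itself. Its level on the probe A_64_P037843 was -4.89, -5.42 and -4.87 on the control arrays, -3.71, -3.63 and -3.47 with GR24, -4.20, -3.83 and -4.14 with pinosylvin, and -3.88, -3.74 and -3.73 with resveratrol, in the order of the replicates. Every treated array was higher than every control array, and the second control replicate was the lowest of all. Since 2 of the 3 control arrays were not above background, the sizes of the rises are uncertain. *Ahr* rose with GR24 (fitted log2 difference 1.46, limma adjusted p = 1.35e-05), with resveratrol (fitted 1.27, adjusted p = 0.000297) and with pinosylvin (fitted 1.00, adjusted p = 0.00124). With the second control array, which lay under the lowest signal called above background on it, raised to that signal, a step chosen after seeing the data, the rise was 2.32-fold for GR24, 2.04-fold for resveratrol and 1.69-fold for pinosylvin. The probe was tested because it is above background in the treated groups, and in a fit of all probes without the filter the adjusted p was 6.56e-05 for GR24, 0.00143 for resveratrol and 0.00499 for pinosylvin. The levels ran from GR24 (-3.60 ± 0.12, SD, n = 3) through resveratrol (-3.79 ± 0.08) and pinosylvin (-4.06 ± 0.20) to the control (-5.06 ± 0.31). GR24 and resveratrol, neighbours in this order, did not differ past the threshold, with a difference of 0.18 (95% interval -0.15 to 0.52). Neither did pinosylvin and resveratrol, with a difference of -0.27 (-0.61 to 0.06). *Ahr* was higher with GR24 than with pinosylvin by 0.45 (adjusted p = 0.0245), a call that was lost under other settings, among them without the filter on dim probes (0.0618) and without GR24 replicate 3 (0.0768).

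The *Ahr* signal was dim, at 32.8, 17.1 and 35.4 on the control arrays and 66.3, 67.8 and 89.4 with GR24, where the dimmest signals called well above background had values of 21.45 to 33.53, depending on the array. The sizes of its differences depended on how the background was handled. With another background correction, normexp with an offset, the difference was 0.41 for GR24, 0.27 for pinosylvin and 0.31 for resveratrol. In the series table deposited by the authors it was 0.87 for GR24, 0.47 for pinosylvin and 0.74 for resveratrol. All of these passed the threshold. On the slide that holds replicates 1 and 2, every treated array was higher than both control arrays, neither of which was above background. On the slide of replicate 3, whose control array was above background, the differences were 1.40 for GR24, 0.74 for pinosylvin and 1.14 for resveratrol. *Ahr* is also among the genes that the study picked from these arrays as higher with GR24, so its direction there is no independent evidence.

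*Arnt* encodes the partner with which the receptor binds DNA, and it has a pair of probes. On the brighter, A_64_P129473, the level was -2.51, -2.61 and -2.48 on the control arrays, -1.45, -1.34 and -1.55 with GR24, -2.47, -2.27 and -2.34 with pinosylvin, and -2.64, -2.66 and -2.52 with resveratrol. The GR24 arrays were higher than all 9 others, and the other groups lay close together. *Arnt* rose with GR24 by 1.09 (SE 0.08, limma adjusted p = 1.11e-06), or 2.12-fold. Within the slides it was higher by 1.16 on the first and by 0.93 on the second. On the dimmer probe, A_43_P11561, the level was -4.78, -4.25 and -5.09 on the control arrays, -3.68, -3.62 and -4 with GR24, -4.93, -4.68 and -4.65 with pinosylvin, and -4.81, -5.17 and -5.11 with resveratrol. Here too every GR24 array was higher than every other array, and the control arrays were spread widely. The probe rose with GR24 by 0.94 (SE 0.20, adjusted p = 0.00204), with 0.87 on the first slide and 1.09 on the second. That call was lost with normexp, where the difference was 0.22 (adjusted p = 0.157).

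Neither of the stilbenes moved *Arnt* past the threshold. With pinosylvin the difference from the control was 0.17 on the brighter probe (95% interval -0.01 to 0.35) and -0.04 on the dimmer. With resveratrol it was -0.08 on the brighter (-0.25 to 0.10) and -0.32 on the dimmer. GR24 was higher than pinosylvin by 0.91 on the brighter probe (adjusted p = 4.47e-06) and than resveratrol by 1.16 (adjusted p = 1.01e-06). The levels on the brighter probe ran from GR24 (-1.45 ± 0.11) through pinosylvin (-2.36 ± 0.10) and the control (-2.53 ± 0.06) to resveratrol (-2.61 ± 0.08), and neighbours after GR24 did not differ. Pinosylvin minus resveratrol was 0.25 on it (0.07 to 0.43, adjusted p = 0.0663), short of the threshold. With the replicate number as a block that difference passed (adjusted p = 0.0489), as it did with the slide as a block (0.0394). It did not pass in most other settings, was as low as 0.105 with normexp and quantile normalization, and was 0.13 in the deposited table (adjusted p = 0.435).

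*Ahrr* encodes the repressor, which lacks a transactivation domain and competes with the receptor for Arnt. Its level on the probe A_64_P011324 was 4.80, 5.03 and 4.72 on the control arrays, 4.82, 4.82 and 4.71 with GR24, 4.11, 4.18 and 4.04 with pinosylvin, and 4.90, 4.82 and 4.85 with resveratrol. The 3 pinosylvin arrays were lower than all 9 others. Among these, the control arrays overlapped both other groups, and the GR24 arrays lay just under the resveratrol arrays. *Ahrr* fell by 0.74 with pinosylvin (SE 0.08, limma adjusted p = 0.000183), which is 1.68-fold lower. With resveratrol it did not differ from the control (0.00, 95% interval -0.19 to 0.19), and with GR24 the difference was -0.07 (-0.26 to 0.11). The levels were 4.85 ± 0.16 in the control and 4.85 ± 0.04 with resveratrol, 4.78 ± 0.06 with GR24 and 4.11 ± 0.07 with pinosylvin, and only the last step of this order passed the test. *Ahrr* has 1 probe, which is printed 1 time on each array. Without probe sequences, whether this bright probe reports *Ahrr* alone was not tested.

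The stilbenes, which differ by a hydroxyl group, differed in *Ahrr*. Pinosylvin was lower than resveratrol by a log2 difference of -0.74 (95% interval -0.93 to -0.56, limma adjusted p = 0.000295), and *Ahrr* was the single tested pathway gene past the threshold between them. With the replicate number as a block, *Arnt* on its brighter probe (adjusted p = 0.0489) and *Cyp1b1* (0.00789) passed as well. Pinosylvin was also lower than GR24, since GR24 minus pinosylvin was 0.67 (adjusted p = 6.04e-05). Within the slides, the difference of pinosylvin from the control was -0.77 on the first and -0.68 on the second, and that from resveratrol was -0.71 and -0.81. *Ahrr* kept these calls under all other processing tried, from -0.77 to -0.73 against the control and from -0.78 to -0.71 against resveratrol. The summed signal of the myotube markers with pinosylvin, not scaled between arrays, lay within the range of the control arrays. In scaled levels, 2 markers were higher than in the control and 1 lower (median 0.15, against 0.05 over all tested probes). Of all tested probes, 8.28% were higher than in the control and 8.27% lower. Between the stilbenes, 9 of the 12 myotube markers were higher with pinosylvin and none lower (median 0.48, against 0.02 over all tested probes). Here 7.68% of all tested probes were higher with pinosylvin and 6.85% lower. *Myod1*, 1 of the 9, did not pass without the filter on dim probes (adjusted p = 0.0555). The markers moved along with this difference, and their part in the result was not tested.

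**Figure D1:**
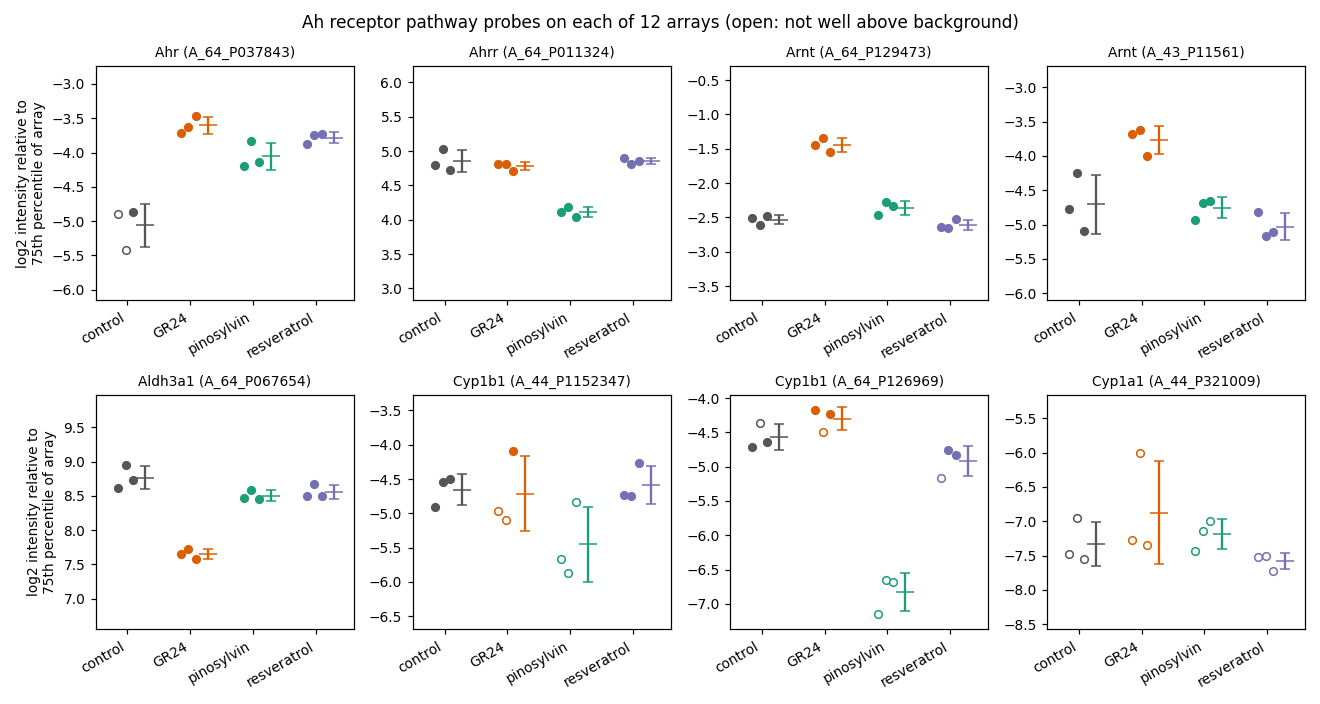
Level of each probe (log2 signal relative to the array's 75th percentile, vertical axis) in the 4 groups (horizontal axis), with a point per array, filled where well above background and open where not, and a mark and bar for the mean and SD (n = 3). *Ahr* lies higher on all treated arrays than on the control arrays, *Arnt* and *Aldh3a1* stand apart with GR24, and *Ahrr* is lower with pinosylvin (4.11 against 4.85 in the control).

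*Cyp1a1* encodes the cytochrome P450 that serves as the classic readout of the receptor. Its probe, A_44_P321009, was not well above background on any of the 12 arrays, with signals of 4.38 to 13. The highest was the second GR24 replicate, and the other 11 arrays were at 6.87 or less. No order of the groups and no difference can be read from it.

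*Cyp1b1* encodes another P450 of this family, which acts on estrogens and polycyclic hydrocarbons, and it has 3 probes. None of them was well above background on any pinosylvin array. On the probe A_44_P1152347 the signal was 32.4, 31.3 and 46.0 on the control arrays, 27.6, 24.5 and 58.2 with GR24, 16.0, 12.3 and 30.8 with pinosylvin, and 34.1, 29.6 and 53.3 with resveratrol. It was well above background on all control and resveratrol arrays and on the third GR24 replicate, and the third replicate was the highest in every group. The control group was at least 1.20-fold higher than pinosylvin, with the pinosylvin signals raised to the lowest signal called above background where they lay under it. This difference did not pass the threshold (limma adjusted p = 0.114), nor did that from resveratrol, at least 1.25-fold (adjusted p = 0.0957), or from GR24 (adjusted p = 0.0687). With the replicate number as a block, all 3 passed, with an adjusted p of 0.00965 against the control, 0.00789 against resveratrol and 0.0049 against GR24. The probe was tested because it is above background in the control and resveratrol groups, and in a fit of all probes without the filter and without the block the adjusted p was 0.254 against the control, 0.204 against resveratrol and 0.142 against GR24. With the block and without the filter, a setting chosen after seeing the data, it was 0.0357 against the control, 0.0304 against resveratrol and 0.0158 against GR24. On both slides the pinosylvin arrays were lower than the control arrays. The bounds hold for this background correction only, and with normexp the difference from the control was smaller than the bound.

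On the *Cyp1b1* probe A_64_P126969 the signal was 36.9, 35.7 and 41.6 on the control arrays, 47.7, 37.4 and 52.8 with GR24, 5.76, 7.17 and 8.56 with pinosylvin, and 25.5, 29.4 and 36.0 with resveratrol. The pinosylvin arrays were far under all others, while resveratrol came close to the control. This probe was not tested, because it was well above background on 2 of the 3 arrays of every other group. In a fit of all 45598 probes without that filter, pinosylvin was lower than the control (limma adjusted p = 4.92e-05), lower than resveratrol (0.000374) and lower than GR24 (3.1e-06). No sizes are given for these, since the brighter groups hold an array that is not above background as well. With the pinosylvin signals raised to the lowest signal called above background, their mean level was -4.91, and the resveratrol mean, -4.92, was no longer higher, so the difference from resveratrol rests on signals under that limit. In that fit *Cyp1b1* did not pass with GR24 against the control (difference 0.27, 95% interval -0.11 to 0.66) or with resveratrol (-0.34, -0.73 to 0.04), while GR24 was higher than resveratrol by 0.62 (0.23 to 1.00, adjusted p = 0.0243). With an array of each group not above background, that size is uncertain, and it was 0.15 with normexp and 0.25 in the deposited table. On the tested probe A_44_P1152347 GR24 minus resveratrol was -0.14 (adjusted p = 0.764). With normexp and in the deposited table, pinosylvin was lower than the control on A_64_P126969 as well. The remaining *Cyp1b1* probe, A_44_P1081585, was not above background on any array, with signals of 5.56 to 17.5.

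*Aldh3a1* encodes an aldehyde dehydrogenase that is abundant in the cornea and stomach and that dioxin induces in rat liver. The probe named for it, A_64_P067654, is printed 10 times on each array, and its signal was 384000, 363000 and 440000 on the control arrays, 176000, 178000 and 190000 with GR24, 288000, 277000 and 306000 with pinosylvin, and 331000, 325000 and 368000 with resveratrol. The coefficient of variation over its spots was 2.01% to 8.53%, and no spot was saturated. In levels, it was 8.62, 8.95 and 8.73 on the control arrays, 7.66, 7.73 and 7.58 with GR24, 8.47, 8.59 and 8.45 with pinosylvin, and 8.50, 8.67 and 8.50 with resveratrol. The GR24 arrays were lower than all others, and the pinosylvin arrays were lower than the control arrays, while the resveratrol arrays overlapped both. The files hold no probe sequences, so whether this bright probe reports *Aldh3a1* alone was not tested.

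*Aldh3a1* fell by 1.11 with GR24 (SE 0.09, limma adjusted p = 3.15e-06), or 2.15-fold, with -1.09 on the first slide and -1.14 on the second. The difference was -0.26 with pinosylvin (95% interval -0.47 to -0.06, adjusted p = 0.0855) and -0.21 with resveratrol (-0.42 to -0.0013, adjusted p = 0.168). With the replicate number as a block, both passed the threshold, at an adjusted p of 0.00962 for pinosylvin and 0.0252 for resveratrol. For resveratrol this was the only setting that passed. Its difference was -0.102 with quantile normalization, -0.0762 with normexp and quantile normalization, -0.0967 in the deposited table and -0.118 without control replicate 2, and with the block and without the filter, chosen after seeing the data, the adjusted p was 0.0994. For pinosylvin it also passed in other settings, among them the deposited table (adjusted p = 0.0033) and quantile normalization (0.00465). It passed more narrowly with normexp (0.045) and with the slide as a block (0.0426), and did not pass without the filter (0.239). GR24 was lower than pinosylvin by a difference of -0.84 (adjusted p = 2.61e-05) and than resveratrol by -0.90 (adjusted p = 2.06e-05). The levels ran from the control (8.77 ± 0.17) through resveratrol (8.56 ± 0.10) and pinosylvin (8.50 ± 0.07) to GR24 (7.66 ± 0.07). Pinosylvin and resveratrol, neighbours here, did not differ (-0.05, -0.26 to 0.16), although with quantile normalization the difference was -0.20 and passed (adjusted p = 0.0415), as it did in the deposited table at -0.21 (adjusted p = 0.0298).

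**Figure D2:**
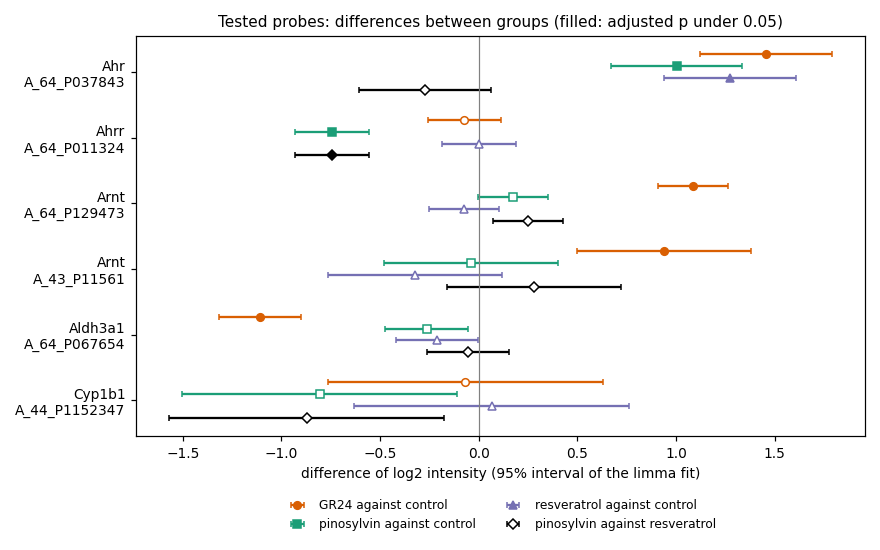
Difference in log2 level (horizontal axis) of each tested probe between a compound and the control and between pinosylvin and resveratrol, with the 95% limma interval as a bar and a filled point where the adjusted p is under 0.05. With GR24 *Ahr* is at 1.46 and *Aldh3a1* at -1.11, and between the stilbenes *Ahrr* at -0.74 is the filled point.

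Genes whose centred profiles over the 12 arrays were nearest to those of the pathway genes were sought among 10736 named genes, by the root mean square difference in log2. For *Ahr* the nearest were *Gstt2* (0.24), *Kcng1* (0.24) and *Lgals2* (0.25), where *Ahr* itself varied by 0.59 around its mean. For *Arnt* on its brighter probe they were *Pcgf3* (0.09), *Insig2* (0.10) and *Suco* (0.11), and on its dimmer probe *Gng12* (0.16), *Rara* (0.16) and *Foxk1* (0.17). For *Ahrr* they were *Cep78* (0.12), *Slc2a6* (0.13) and *Pmvk* (0.13). For *Aldh3a1* they were *Actb* (0.07), which encodes cytoplasmic actin, *Actn4* (0.08) and *Ssx2ip* (0.09), where *Aldh3a1* varied by 0.43. *Actb* differed from the control by -0.95 with GR24, -0.20 with pinosylvin and -0.13 with resveratrol. For *Cyp1b1* they were *Trim17* (0.27), *Slc25a42* (0.30) and *Pik3cd* (0.30), a looser likeness against its own 0.50.

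The receptor works with chaperones and coregulators, and of 19 such genes listed 14 were tested. Against the control, GR24 raised 7 and lowered 1, where 31.5% of all tested probes rose and 25.5% fell, with a median difference of 0.26 (0.03 over all tested probes). Those that rose were the kinase cochaperone *Cdc37* (0.45), the kinase *Src* (0.39), *Rela* (0.36), *Smarca4* (0.30), both cytoplasmic Hsp90 genes *Hsp90aa1* (0.26) and *Hsp90ab1* (0.21), and *Ptges3* (0.26), which encodes the p23 cochaperone of the receptor complex. *Rb1* fell by 0.42. With pinosylvin *Hsp90ab1* rose (0.29, limma adjusted p = 0.00724) and no other gene passed, where 16.6% of all tested probes did, with a median of 0.03 (0.05 over all tested probes). With resveratrol 0 of the 14 passed in limma (17% of all tested probes did), with 4 at an unadjusted p under 0.05, and the median was 0.02 (0.01 over all tested probes).

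Of 15 symbols listed for other bHLH-PAS factors, the family of *Ahr* and *Arnt*, 7 were tested. The list holds *Bmal1* and *Bmal2* also under their older symbols, *Arntl* and *Arntl2*, for which no probe was named. With GR24 the clock genes *Clock* (1.22, limma adjusted p = 1.63e-05) and *Bmal1* (0.58) and the hypoxia factor *Hif1a* (0.43) rose and *Npas2* fell by 0.63, 4 of the 7 where 57.1% of all tested probes passed, with a median of 0.06 (0.03 over all tested probes). With resveratrol *Bmal1* rose (0.35) and *Npas2* fell by 0.50, 2 of the 7 where 17% of all tested probes passed, with a median of 0.01 (0.01). With pinosylvin 0 of the 7 passed in limma (16.6% of all tested probes did), with 3 at an unadjusted p under 0.05, and the median was 0.14 (0.05).

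Of 20 further genes known as targets of the Ah receptor, 15 were tested. With GR24, 9 rose and 3 fell, where 31.5% of all tested probes rose and 25.5% fell, with a median of 0.59 (0.03 over all tested probes). Among those that rose were *Nqo1* (3.00, limma adjusted p = 3.55e-10), which encodes a quinone reductase, *Gsta5* (3.92), *Lpcat2* (1.52), *Bach1* (1.10), *Hes1* (0.65), the cell cycle inhibitor *Cdkn1b* (0.65) and *Nfe2l2* (0.59), which encodes Nrf2. *Serpinb2* fell by 1.08, *Ptgs2* by 0.90 and *Xdh* by 0.34. *Nqo1* and glutathione transferases are also known targets of Nrf2, and the study picked *Nqo1*, *Nfe2l2* and the accessions named *Gsta5* and *Ugt1a6* here from these arrays, so their direction is no independent evidence. *Ugt1a6* has 2 probes, and the 1 used here did not pass with GR24 (0.09, limma adjusted p = 0.313), although the study lists its accession as upregulated.

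With resveratrol, 7 of the 15 further targets rose and 1 fell, where 7.99% of all tested probes rose and 8.99% fell (median 0.31, against 0.01). With pinosylvin 6 rose and 3 fell, where 8.28% of all tested probes rose and 8.27% fell (median 0.31, against 0.05). *Nqo1* rose by 2.08 with resveratrol (limma adjusted p = 1.15e-07) and by 0.38 with pinosylvin, and pinosylvin was lower than resveratrol by a difference of -1.7 (adjusted p = 2.6e-06). *Gsta5* rose by 1.91 with resveratrol and by 0.68 with pinosylvin. *Gsta2*, another glutathione transferase gene, is counted among the genes that rose with GR24 and resveratrol and fell with pinosylvin. It was tested through the GR24 and resveratrol groups and was above background on 1 control array and on no pinosylvin array, so no sizes are given for it. In the fit without the filter its limma adjusted p was 6.07e-06 with GR24 and 0.0178 with resveratrol, while with pinosylvin it did not pass (0.0785). *Scin*, which encodes the actin-severing protein scinderin, rose by 0.82 with resveratrol, by 0.75 with pinosylvin and by 0.36 with GR24. *Xdh* fell by 0.48 with resveratrol and by 0.56 with pinosylvin, and *Serpinb2* fell by 0.62 with pinosylvin. Between the stilbenes 2 of the 15 were higher with pinosylvin and 4 lower, where 7.68% of all tested probes were higher and 6.85% lower (median -0.16, against 0.02).

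Among the relatives and redox partners of the Cyp1 and Aldh3 enzymes, 7 of 10 were tested. With GR24, 4 rose and 2 fell, where 31.5% of all tested probes rose and 25.5% fell (median 0.30, against 0.03), and *Por*, the reductase that feeds electrons to P450 enzymes, rose by 0.83. *Aldh1a1*, a retinaldehyde dehydrogenase, fell by 0.92 with GR24 and rose by 0.86 with pinosylvin (limma adjusted p = 4.8e-05). With pinosylvin 4 rose and none fell (16.6% of all tested probes passed, median 0.35, against 0.05), and with resveratrol 1 rose, *Aldh2* (0.56), and none fell (17% passed, median 0.03, against 0.01). Between the stilbenes, 3 were higher with pinosylvin, *Aldh1a1* by 0.99, *Aldh3b1* by 0.50 and *Cyb5a* by 0.32, and 2 were lower, *Aldh3a2* by a difference of -0.49 and *Por* by -0.35 (14.5% of all tested probes differed).

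*Tiparp* adds ADP-ribose to the receptor, and of 16 related transferases and hydrolases 10 were tested. With GR24, 6 rose and 2 fell, where 31.5% of all tested probes rose and 25.5% fell (median 0.39, against 0.03), with *Parg* (0.98), which removes poly-ADP-ribose, and *Zc3hav1* (0.93) at the top and *Parp1* falling by 0.36. With resveratrol *Parg* (0.35) and *Parp16* (0.25) rose and none fell (17% of all tested probes passed, median -0.04, against 0.01). With pinosylvin 0 of the 10 passed in limma (16.6% of all tested probes did), with 4 at an unadjusted p under 0.05, and the median was -0.05 (0.05).

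Of 11 genes that form ligands of the receptor from tryptophan, 4 were tested. With GR24 *Afmid*, which makes kynurenine, fell by 1.07 and none rose (57.1% of all tested probes passed, median -0.13, against 0.03). With pinosylvin 0 of the 4 passed in limma (16.6% of all tested probes did), with 1 at an unadjusted p under 0.05 (median 0.19, against 0.05). With resveratrol 0 of the 4 passed in limma (17% of all tested probes did), with 0 at an unadjusted p under 0.05 (median -0.04, against 0.01).

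Promoter sequences from RefSeq, build GRCr8, were found for 5 of the 7 pathway genes, *Ahr*, *Ahrr*, *Arnt*, *Cyp1b1* and *Tiparp*, and not for *Cyp1a1* and *Aldh3a1*. The 250 bases before the start that the promoter table uses for each gene were searched on both strands for GCGTG, which reads as CACGC on the opposite strand, the core of the sequence that the receptor and Arnt bind, and for the longer TNGCGTG, which contains it. Over all 27457 promoters of this length, 27.2% hold the core, 4.3% hold TNGCGTG, and 2.7% hold the core 3 times or more. *Ahrr* (chr1:30821969-30822218, plus strand) holds the core 3 times and TNGCGTG 1 time. *Cyp1b1* (chr6:21094315-21094564, plus strand) holds the core 2 times and TNGCGTG 1 time, in a window that lies inside the span of *Cyp1b1* in the gene table, past the outermost start there. *Arnt* (chr2:185686453-185686702, plus strand) and *Tiparp* hold the core 1 time each, and *Ahr* (chr6:57998902-57999151, minus strand) does not hold it in this window. Of the further target genes, 9 of 19 promoters hold the core (47.4%) and 4 hold TNGCGTG (21.1%). The promoters of *Ahrr*, *Cyp1b1*, *Ahr* and *Arnt* are shown 5′ to 3′ on the strand of the gene, with the core in capitals. With pinosylvin *Ahrr* fell, and *Cyp1b1* was lower on its tested probe, short of the threshold in the main fit. *Ahr* rose with all 3 compounds, and *Arnt* rose with GR24. A match describes the letters and is not a binding site.
Ahrr: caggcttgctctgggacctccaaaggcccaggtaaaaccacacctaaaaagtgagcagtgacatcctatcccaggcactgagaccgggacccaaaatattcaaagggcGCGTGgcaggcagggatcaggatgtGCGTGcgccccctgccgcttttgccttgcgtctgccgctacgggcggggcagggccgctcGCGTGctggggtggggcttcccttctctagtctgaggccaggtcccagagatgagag
Cyp1b1: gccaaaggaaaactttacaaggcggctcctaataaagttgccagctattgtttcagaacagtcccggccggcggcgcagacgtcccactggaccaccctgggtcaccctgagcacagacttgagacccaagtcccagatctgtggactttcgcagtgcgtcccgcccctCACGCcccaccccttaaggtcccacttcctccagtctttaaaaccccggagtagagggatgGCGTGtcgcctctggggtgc
Ahr: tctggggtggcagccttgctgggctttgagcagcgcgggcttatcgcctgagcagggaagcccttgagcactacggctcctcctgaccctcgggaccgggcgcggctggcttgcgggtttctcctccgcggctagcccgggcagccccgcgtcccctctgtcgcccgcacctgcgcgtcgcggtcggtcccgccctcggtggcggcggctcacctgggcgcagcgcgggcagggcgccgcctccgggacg
Arnt: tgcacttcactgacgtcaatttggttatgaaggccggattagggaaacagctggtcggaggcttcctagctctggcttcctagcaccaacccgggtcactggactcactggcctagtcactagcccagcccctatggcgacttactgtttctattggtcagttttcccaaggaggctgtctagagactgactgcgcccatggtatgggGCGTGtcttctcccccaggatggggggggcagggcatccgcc

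Markers of other cells were read beside these results. Fibroblast markers, 3 of 3 above background on all 12 arrays with *Thy1* the brightest, summed to 6455, 4900 and 7541 on the control arrays, 3489, 3466 and 4002 with GR24, 3915, 3586 and 4463 with pinosylvin, and 5425, 5231 and 6824 with resveratrol. The sums were lower with GR24 and pinosylvin than in the control, and *Thy1* fell by 0.63 with pinosylvin and by 0.90 with GR24. The others did not follow it with pinosylvin, where *Pdgfra* rose (0.43) and *Dcn* did not pass (0.13), and with GR24 *Pdgfra* rose (0.23) and *Dcn* fell by 0.29. With resveratrol *Pdgfra* rose (0.35), and *Thy1* and *Dcn* did not pass. Between the stilbenes *Thy1* was lower with pinosylvin (-0.53), *Dcn* was higher (0.39) and *Pdgfra* did not pass. Macrophage markers, 3 of 3 with a probe, summed to 108.0, 103.4 and 190.7 on the control arrays and 598.2, 616.0 and 691.6 with GR24, and to between 112.5 and 176.4 with the stilbenes. Their highest signal was that of *Cd68*, a lysosomal protein gene that rose with GR24 (2.67, limma adjusted p = 4.11e-07). *Ptprc* was not above background on any array. *Adgre1*, not tested, was above background on 1 control, 1 GR24 and 1 resveratrol array and on no pinosylvin array. Endothelial markers summed to 158.0 to 338.9 and keratinocyte markers to 67.28 to 138.6, led by *Cdh5* and *Krt14*, neither of which passed against the control with any compound. *Pecam1*, not tested, was above background on 0 control, 2 GR24, 2 pinosylvin and 1 resveratrol arrays, and *Krt5*, above background on 3 control arrays and on 2 of each other group, was lower with resveratrol in the main fit (adjusted p = 0.0468) but not past the threshold without the filter (0.115). The adipocyte markers *Adipoq* and *Cidec* and the hepatocyte markers *Alb* and *Ttr* were not above background on any array. *Apoa1*, the brightest of the hepatocyte markers and not tested, was above background on 1 GR24 array and on no other array. No order of the groups is read from it. The part of all these markers in the result was not tested.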

How the data were processed

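RNA of L6 myotubes was hybridized to 12 Agilent arrays. The authors deposited the output of Agilent Feature Extraction 12.0.0.7 for each array. From it came the processed signal, deposited as an intensity from which the background had been subtracted within the array, the median intensities of spot and background, and, per the file headers, marks of 0 or 1 for outliers, for saturated spots and for signal over background. An alternative was the series table, which holds log2 values of 25848 probes that the authors normalized.

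Control spots and spots marked as outliers were dropped, and the spots of each of 45598 probes were averaged. Per array, 57.96% to 64.27% of 58717 spots were well above background. From log2 of the signal the 75th percentile over probes was subtracted. Of the tested probes, 87.39% were above background on all 12 arrays. limma 3.58.1 in R 4.3.3 gave a mean per group, 6 contrasts, two-sided moderated tests and p-values adjusted by Benjamini-Hochberg over every probe tested. The fit was tested on simulated data. Probes were named by RefSeq accession, without version, in the gene table of GRCr8, used for names only. For the tested *Cyp1b1* probe, above background on no pinosylvin array, bounds are given, in which the pinosylvin signals are raised to the lowest signal called above background. No bound is given for other genes.

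The labels number the replicates 1 to 3 in every group, and same-numbered arrays deviated together from their group means in all 18 pairs (r 0.227 to 0.831, median 0.566). For 10 of the 12 arrays the best match in another group had the same number. The pairing comes from these numbers and this check, and the fit with the number as a block is an alternative. Replicates 1 and 2 share a slide and replicate 3 is on another, with all groups on both.

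Named are all 7 pathway genes, genes of the lists among those that passed the threshold or that describe the list, each by its brightest probe, and the 3 nearest profiles per tested probe. The lists were chaperones and coregulators, other bHLH-PAS factors, further targets, relatives of the enzymes, tryptophan enzymes, ADP-ribosyl transferases and hydrolases, and markers of myotubes and of fibroblasts, adipocytes, endothelial cells, macrophages, hepatocytes and keratinocytes. The pathway genes and lists were chosen with earlier results of these data known. Alternatives were other scaling, background correction, filters, blocks, variance settings, spots, arrays of the fit, and leaving out each array.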

Additional observations from a re-analysis of the deposited data

How the results depend on the processing

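The dimness of *Ahr* and *Cyp1b1*, near the limit of signal well above background, restricts what can be said of the size of their differences, and 3 arrays per group restrict the precision. The cause of the changes below was not tested, except where fewer probes or arrays entered. Over all settings, 727 differences of pathway probes stayed on their side of the threshold, 42 passed it newly, 11 no longer passed, and no difference past it turned its direction. Some that were short of it in both fits changed sign, such as *Ahrr* with GR24.

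The rise of *Ahr* passed in all 15 settings that held its probe, from 0.41 to 1.61 with GR24, 0.27 to 1.14 with pinosylvin and 0.31 to 1.44 with resveratrol, and in all 16 settings so did *Arnt* A_64_P129473 with GR24 (0.78 to 1.19), *Aldh3a1* with GR24 (-1.11 to -0.88) and *Ahrr* with pinosylvin. Leaving out an array kept these calls, with *Ahr* from 1.28 to 1.55 with GR24 and *Ahrr* from -0.81 to -0.65 with pinosylvin.

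The counts of pathway probes that follow are not all out of the same number. The fit of probes above background on all 12 arrays held 4 pathway probes. Fits of the deposited table held 7 of them, fits without the filter 9, and the other fits named here 6. Pathway probes past the threshold for pinosylvin against control (2) were 4 with quantile normalization, 4 in the deposited table, 4 with the slide as a block and 1 among probes above background on all 12 arrays. For resveratrol against control (1) they were 0 among probes above background on all 12 arrays, where limma gave 1 at an unadjusted p under 0.05, since *Ahr* is not among those probes. For pinosylvin against resveratrol (1) they were 3 with quantile normalization, 2 with normexp and quantile normalization, 3 in the deposited table, 2 without the filter, 3 with the slide as a block, 2 on slide 1 alone, and 1 to 2 when an array was left out. For GR24 against pinosylvin (5) they were 3 with normexp. The deposited table and the fit without the filter hold *Cyp1b1* A_64_P126969 as well. Among alternatives chosen after seeing the data, the percentile over spots gave 2 for pinosylvin against resveratrol, and the deposited table with the slide as a block gave 5 for pinosylvin against control and 5 for pinosylvin against resveratrol. The replicate block without the filter gave 5 for pinosylvin against control and 3 for pinosylvin against resveratrol.

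With the replicate block, which uses the pairing of the numbers, 4 pathway probes passed for pinosylvin against control, 2 for resveratrol against control and 3 for pinosylvin against resveratrol. Over all probes 6947 passed for pinosylvin against control (4019 without the block), 6769 for resveratrol against control (4123) and 6323 for pinosylvin against resveratrol (3528). The block changed the calls given in the report and no other call of a pathway probe. The counts of the gene lists, and the shares of all tested probes beside them, are from the fit without the block.

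Of all probes, 2409 passed for pinosylvin against control without the filter, 7074 with the slide as a block, 2479 with only the 6 arrays compared and 6276 in the deposited table with the slide as a block. For resveratrol against control 2680 passed without the filter, 6869 with the slide as a block and 6358 in the table with the slide. For pinosylvin against resveratrol 1975 passed without the filter, 6443 with the slide as a block, 5572 in the table with the slide, and 2148 to 2716 when an array was left out.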
